A study of Homo sapiens with 3 samples.

Results

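The Wnt genes examined here were 48 genes fixed by name, comprising the 19 human WNT ligands, 12 receptor genes (10 Frizzled genes with LRP5 and LRP6), 9 secreted antagonists of the DKK, SFRP and WIF families, 4 TCF/LEF transcription factor genes, and 4 genes that feed back on the pathway (AXIN2, APCDD1, RNF43 and ZNRF3). All 48 were found among the 46427 genes of the deposited table. RNA came from MG-OKS, a cell line that the series title describes as an artificial osteosarcoma line with cancer stem cell-like properties, and that the labels call mesenchymal. The 3 groups were untransfected MG-OKS cells with a wild-type genotype label, MG-OKS cells transfected with a scrambled siRNA, and MG-OKS cells transfected with an siRNA directed at SPRR1A. Every group was cultured in DMEM with 10% fetal bovine serum, and transfected cells received fresh medium after 24 h. The whole design rests on 1 line and on 1 library per group, so no difference below has a replicate check and no p-value could be computed.

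Wnt proteins are secreted, lipid-modified ligands that bind Frizzled receptors and, for the canonical branch, the co-receptors LRP5 and LRP6. Receptor engagement stabilises beta-catenin, which enters the nucleus and acts with TCF/LEF factors on target genes, among them negative feedback regulators. Ligands such as WNT5A act mainly through noncanonical branches. In bone, canonical Wnt signalling promotes osteoblast formation, and DKK1 and SFRP proteins restrain it outside the cell.

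Below, a triplet of values is always given in the order untransfected cells, scrambled siRNA, SPRR1A siRNA. Libraries held 40050593 counts (untransfected), 36533542 (scrambled) and 34453554 (SPRR1A siRNA). SPRR1A, the gene targeted by the siRNA, had 0 counts in all 3 libraries, where 3 counts correspond to 0.0737 to 0.0880 counts per 1e6 counts (CPM), so it could not check the labels. All 7 mesenchymal markers were expressed, led by VIM at 3510, 3523 and 1436 TPM (transcripts scaled to a fixed sum per library and corrected for gene length). Their summed TPM was 4043, 3892 and 1637 in the same order, most of it VIM, so the sum does not stand for each gene. All 7 were lowest with the SPRR1A siRNA, but COL1A2 was highest with the scrambled siRNA (6064, 6896 and 3542 counts). THY1 had 4492, 2877 and 2264 counts. The keratinocyte genes KRT14 (3739, 1439 and 1934 TPM) and KRT6A (2803, 1210 and 1761 TPM) were also abundant. They made up nearly all of the summed TPM of the 7 keratinocyte markers, which was 6549, 2653 and 3698. KRT5 was ordered as they were, with 227, 52 and 97 counts. TP63 (65, 86 and 24 counts) and DSG3 (16, 23 and 4) were instead highest with the scrambled siRNA and lowest with the SPRR1A siRNA. The epithelial genes CDH1 and EPCAM had 2 to 9 and 5 to 14 counts per library. Of the 6 osteoblast markers 2 reached 1 CPM, RUNX2 with 865, 374 and 571 counts and SPP1 with 28, 86 and 6. RUNX2 was lowest and SPP1 highest in the scrambled library. SP7 and IBSP were at 0. The summed TPM of the 6 was 15.1, 9.67 and 8.46, which does not stand for each gene. The 3 endothelial markers summed to 0.276 to 0.485 TPM with CDH5 at 0, and the 3 leukocyte markers to 0.248 to 1.23 TPM with CD3E at 0. The part of these marker shifts in the Wnt gene differences was not tested. In bulk RNA, fewer cells of a type and less RNA per cell cannot be told apart.

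Of the 48 Wnt genes, 27 were compared, having 1 CPM or more in some library: 8 ligands, 10 receptors, 3 antagonists, 3 TCF factors and 3 feedback genes. Per library, 26 reached 1 CPM in untransfected cells, 25 with the scrambled siRNA and 26 with the SPRR1A siRNA. The remaining 21 were not compared. Among them, 11 had no counts in any library, namely WNT1, WNT2, WNT7A, WNT8A, WNT10A, WNT11, FZD10, SFRP2, SFRP5, WIF1 and LEF1. Another 7 (WNT4, WNT6, WNT8B, WNT9B, FZD9, DKK4 and SFRP4) had at most 6 counts in any library. The genes just under the threshold were RNF43 at 0.936, WNT3A at 0.734 and DKK2 at 0.496 CPM in their highest library. Those just above it were APCDD1 at 1.32 CPM and WNT10B, which had 61 counts in its highest library. WNT10B passed only through the untransfected library, WNT16 (0.516, 1.21 and 2.29 CPM) only through the transfected libraries, and APCDD1 (1.20, 0.468 and 1.32 CPM) not through the scrambled library. Their ratios to the libraries in which they did not pass partly follow from the filter.

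**Figure D1:**
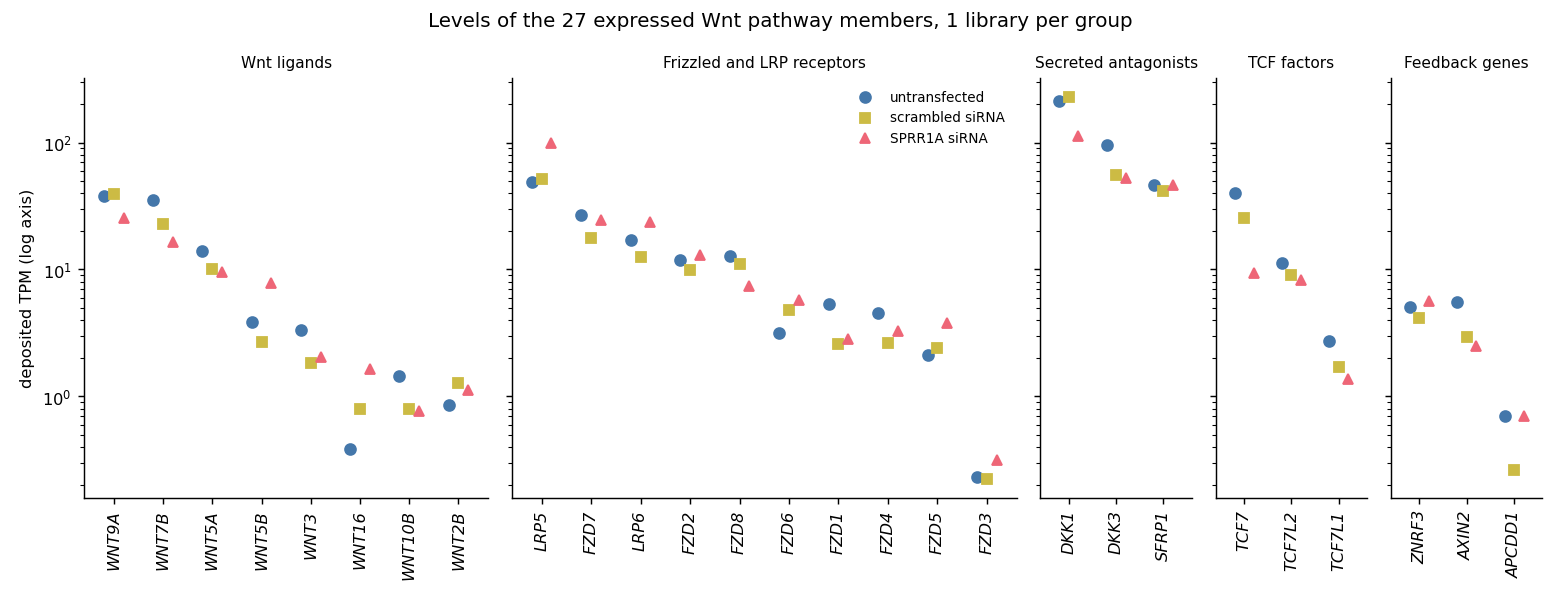
Deposited TPM (log axis) of the 27 expressed Wnt genes by role, with 1 point per library (circle untransfected, square scrambled siRNA, triangle SPRR1A siRNA). DKK1, at 211, 226 and 113 TPM, was the most abundant, and the SPRR1A siRNA triangle lies lowest for TCF7 and highest for LRP5 and WNT5B.

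To be called higher or lower, a gene needed a log2 ratio of scaled counts of 1 or more in either direction, with a 95% counting interval of the ratio that did not include 1. This compares libraries, not conditions, and the intervals cover counting error only. Against the scrambled library, 2 of the 27 genes were called higher in the SPRR1A siRNA library (7.41%, beside 3.70% of all 14233 genes compared) and 2 lower (7.41%, beside 7.26%). Against untransfected cells, 3 were higher (11.1%, beside 2.35%) and 3 lower (11.1%, beside 8.36%). The share called lower was thus near that of all genes in both comparisons, and the share called higher was above it on counts of 2 and 3 genes. APCDD1 among the 2 and WNT16 among the 3 were under 1 CPM in the control library, so these shares partly follow from the filter. Between the controls, 1 gene was higher (3.70%, beside 1.51%) and 1 lower (3.70%, beside 3.44%) in the scrambled library. WNT5B was the 1 Wnt gene called higher than both controls, as 1.03% of all genes were, and TCF7 the 1 called lower than both, as 4.64% of all genes were. The comparisons with both controls share the SPRR1A siRNA library. The median log2 ratio of the 27 genes was 0.15 against scrambled and -0.40 against untransfected cells, beside -0.00 for all genes in each case, and -0.27 between the controls.

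**Figure D2:**
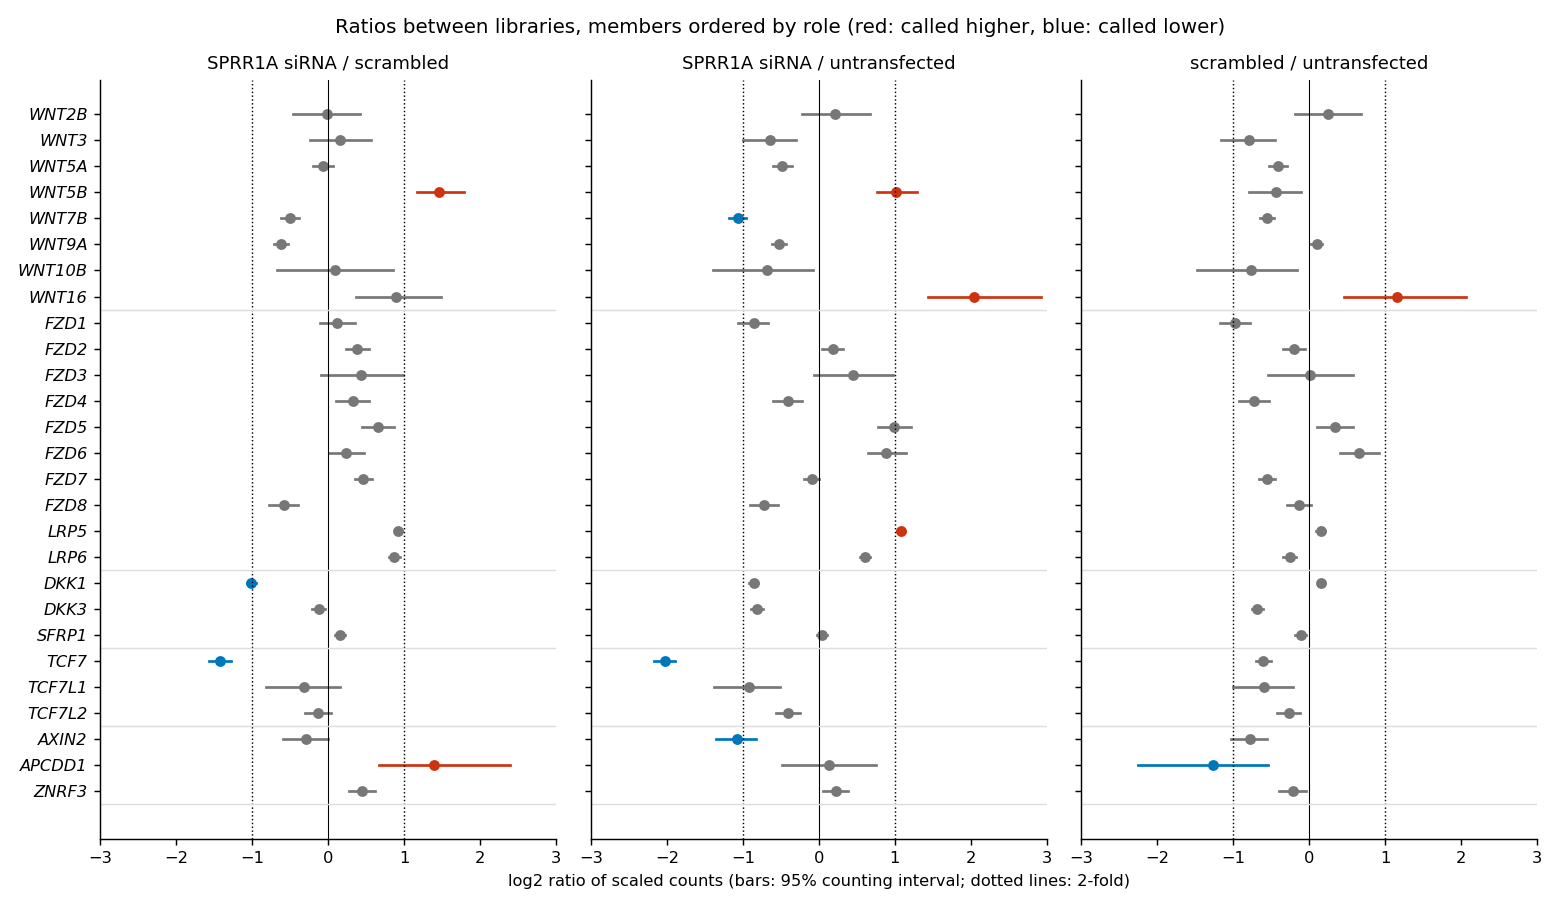
Log2 ratios of scaled counts for the 27 expressed Wnt genes in the 3 comparisons, ordered by role, with 95% counting intervals as bars and dotted lines at 2-fold. Red points were called higher and blue points lower; TCF7 is blue and WNT5B red in both comparisons of the SPRR1A siRNA library, and FZD5 at 0.99 lies just inside the dotted line against untransfected cells.

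Expressed ligands were led by WNT9A and WNT7B, which promote canonical signalling, and by WNT5A, a prototype noncanonical ligand. WNT9A (NCBI Gene 7483, chromosome 1, 227918656 to 227947932 in GRCh38) was at 38.0 TPM in untransfected cells, 39.0 with the scrambled siRNA and 25.6 with the SPRR1A siRNA. The controls thus lay close together, and the SPRR1A siRNA library was 1.54-fold below the scrambled one (95% interval 1.44 to 1.63), which did not meet the rule. For WNT7B the levels were 35.2, 22.8 and 16.3 TPM from 2505, 1512 and 999 counts. Its levels descended from untransfected over scrambled to SPRR1A siRNA, and it was called lower only against untransfected cells, at a log2 ratio of -1.07, beside -0.51 against the scrambled library.

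WNT5B (Gene 81029, chromosome 12, 1617056 to 1647212) had 190 counts in untransfected, 124 in scrambled and 324 in SPRR1A siRNA cells. The siRNA library was the highest of the 3, at 2.78-fold the scrambled (2.26 to 3.45) and 2.04-fold the untransfected library (1.70 to 2.45). The call against untransfected cells was lost when library sizes were not scaled (log2 ratio 0.98) and on the log2(TPM + 1) scale (0.85). Its close paralogue WNT5A did not follow, with 1448, 973 and 868 counts and log2 ratios of -0.07 against scrambled and -0.48 against untransfected cells. Within a library, where scaling plays no part, WNT5B had 0.131 counts per WNT5A count in untransfected (0.112 to 0.153), 0.127 in scrambled (0.105 to 0.154) and 0.373 in SPRR1A siRNA cells (0.328 to 0.425). WNT5B made up 3.94%, 3.40% and 11.9% of the summed TPM of all WNT ligands in these libraries.

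WNT16, a ligand known in mice for supporting cortical bone, was scarce, with 21 counts in untransfected, 44 in scrambled and 78 in SPRR1A siRNA cells. Both transfected libraries lay above the untransfected one and were called higher, at 2.35-fold (1.37 to 4.16) for the scrambled and 4.44-fold (2.71 to 7.57) for the SPRR1A siRNA, while the 2 siRNA libraries differed by a log2 ratio of 0.89, short of the rule. Since WNT16 passed the expression threshold only through the transfected libraries, these calls partly follow from the filter, and on the log2(TPM + 1) scale, which compresses low levels, neither was met (0.38 and 0.93). WNT3 had 202, 103 and 108 counts, WNT10B had 61, 31 and 31, and WNT2B had 87, 92 and 85 counts, and none was called. WNT2B shares 21.2% of its annotated exon bases with ST7L on the opposite strand, and whether counting used the strand was not given, so its value is uncertain. The summed TPM of all 19 ligands was 97.7 in untransfected, 79.4 in scrambled and 65.4 in SPRR1A siRNA cells.

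Several WNT genes lie beside each other in the genome, and neighbours differed in level. WNT9A and WNT3A are 59.1 kb apart on chromosome 1, yet reached 39.0 and 0.508 TPM in their highest libraries. WNT3 and WNT9B are 14.5 kb apart on chromosome 17 and reached 3.34 and 0.0409 TPM. WNT10B and WNT1 are 6.6 kb apart on chromosome 12, where WNT10B was at 1.46, 0.802 and 0.774 TPM and WNT1 had no counts. In the adjoining pair WNT6 and WNT10A on chromosome 2, neither was expressed.

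Among receptors, the co-receptors LRP5 and LRP6 were both more abundant in the SPRR1A siRNA library than in either control. LRP5 (Gene 4041, chromosome 11, 68298412 to 68449275) had 4645 counts in untransfected, 4604 in scrambled and 8201 in SPRR1A siRNA cells. The controls were nearly level, and the siRNA library was 2.11-fold above the untransfected (2.04 to 2.19), which was called, and 1.90-fold above the scrambled library (1.83 to 1.97), which was not. LRP6 had 2912, 2166 and 3716 counts, at 1.83-fold the scrambled (1.73 to 1.93) and 1.52-fold the untransfected library (1.45 to 1.60), below the threshold in both. On the TPM scale, LRP5 alone made up 36.8%, 44.9% and 54.1% of the summed receptor level.

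FZD7 was the most abundant Frizzled gene, at 26.9 TPM in untransfected, 17.6 in scrambled and 24.4 in SPRR1A siRNA cells. The scrambled library was the low one, and the SPRR1A siRNA library differed from untransfected cells by a log2 ratio of -0.09. FZD5 was at 280, 316 and 467 counts, with a ratio of 1.99 to the untransfected library (1.71 to 2.32), just short of the rule. Its ratio to the scrambled library was lower, at 1.57 (1.36 to 1.82). FZD8 had 747, 606 and 379 counts, and of the 10 expressed receptors it was the one with a log2 ratio below 0 (-0.58) to the scrambled library. FZD1 had 680, 307 and 313 counts, so that both transfected libraries lay near the same level, 1.97-fold (scrambled; 1.72 to 2.27) and 1.82-fold (SPRR1A siRNA; 1.59 to 2.09) below untransfected cells. With unscaled library sizes FZD1 was called lower between the controls, in the scrambled library, at a log2 ratio of -1.01.

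FZD2 had 827, 641 and 785 counts and FZD6 had 215, 302 and 335. The scarcer FZD3 had 60, 54 and 69 counts. FZD4 had 615, 330 and 387 counts, but shares 18.9% of its annotated exon bases with PRSS23 on the opposite strand, a gene with 7027 to 15069 counts, and is uncertain for the reason given for WNT2B. None of these 4 was called in any comparison. The median log2 ratio of the 10 receptors was 0.41 against scrambled and 0.31 against untransfected cells, and their summed TPM was 133 in untransfected, 116 in scrambled and 184 in SPRR1A siRNA cells.

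**Figure D3:**
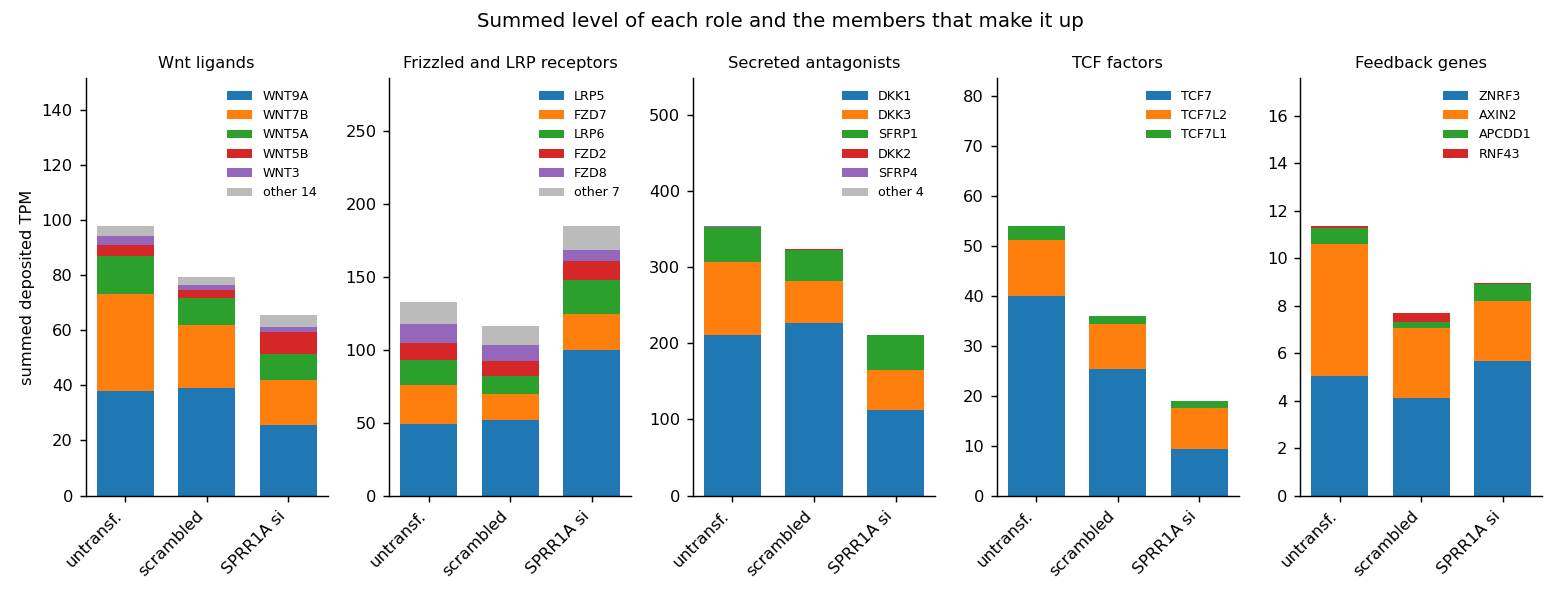
Summed deposited TPM of each role in the 3 libraries, stacked by the most abundant genes. Summed ligand, antagonist and TCF levels were lowest in the SPRR1A siRNA library (65.4, 211 and 19.0 TPM), and the summed receptor level was highest there (184 TPM), most of it LRP5.

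Secreted antagonists were represented by DKK1, which blocks LRP5 and LRP6, by the Dickkopf relative DKK3, and by SFRP1, which binds Wnt ligands. DKK1 (Gene 22943, chromosome 10, 52314281 to 52317657) had 6991 counts in untransfected, 6962 in scrambled and 3234 in SPRR1A siRNA cells. The controls lay close together and the SPRR1A siRNA library stood 2.02-fold below the scrambled (1.94 to 2.11), which was called, and 1.81-fold below the untransfected library (1.73 to 1.89), which was not. The call was at the threshold (log2 ratio -1.01) and was not met on the log2(TPM + 1) scale (-0.997). DKK3 had 4681, 2595 and 2228 counts, so that both transfected libraries lay below untransfected cells, by log2 ratios of -0.69 and -0.81, and were close to each other (-0.13). SFRP1 varied least of the 3, with 3805, 3132 and 3272 counts and log2 ratios of 0.15 against scrambled and 0.04 against untransfected cells. DKK1 and SFRP1 had 1.84 counts of DKK1 per count of SFRP1 in untransfected (1.77 to 1.91), 2.22 in scrambled (2.13 to 2.32) and 0.988 in SPRR1A siRNA cells (0.941 to 1.04).

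DKK1 is itself a known target of beta-catenin and TCF, so promoters were searched for the TCF-type motifs CTTTGAA or CTTTGAT and for the related motifs CTTTGTA or CTTTGTT on both strands, in a window from 250 bases before to 50 bases after the start given by RefSeq (GRCh38.p14). Of the 48 genes, 33 had a promoter in that table, and 2 of them (6.06%) held a motif, DKK1 and WNT3, against 13.9% of all 27305 promoters. Both are expressed, so among expressed genes the shares were 2 of 16 Wnt genes (12.5%) and 8.40% of the 10982 promoters of all genes compared. DKK1 held 2 motifs that do not overlap, which begin at -95 and -76 relative to the start. Its promoter is shown (chr10:52314031-52314330, plus strand) beside those of TCF7 (chr5:134115363-134115662, plus strand), the gene lower than both controls, WNT5B (chr12:1616806-1617105, plus strand), the gene higher than both, and LRP5 (chr11:68312341-68312640, plus strand). Capitals mark the motifs, which TCF7, WNT5B and LRP5 lacked in these windows. For TCF7 and LRP5 the start in the table lies downstream of the outermost start of the gene.
DKK1: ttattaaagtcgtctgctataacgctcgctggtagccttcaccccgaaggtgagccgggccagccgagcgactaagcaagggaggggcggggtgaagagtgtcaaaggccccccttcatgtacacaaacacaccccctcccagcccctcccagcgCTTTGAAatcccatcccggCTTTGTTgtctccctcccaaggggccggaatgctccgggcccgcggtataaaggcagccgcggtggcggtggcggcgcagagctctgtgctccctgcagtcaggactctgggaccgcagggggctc
TCF7: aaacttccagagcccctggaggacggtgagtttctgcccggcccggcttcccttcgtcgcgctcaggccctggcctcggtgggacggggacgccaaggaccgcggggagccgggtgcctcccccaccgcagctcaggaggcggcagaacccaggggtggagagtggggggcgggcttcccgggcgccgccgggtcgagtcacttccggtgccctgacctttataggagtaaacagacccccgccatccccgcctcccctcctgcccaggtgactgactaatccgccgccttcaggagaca
WNT5B: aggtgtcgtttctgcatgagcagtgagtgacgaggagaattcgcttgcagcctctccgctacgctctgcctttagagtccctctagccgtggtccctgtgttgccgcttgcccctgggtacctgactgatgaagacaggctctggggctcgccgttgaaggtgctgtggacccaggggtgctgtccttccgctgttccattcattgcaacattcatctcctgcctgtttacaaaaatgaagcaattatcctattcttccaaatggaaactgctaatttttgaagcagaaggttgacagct
LRP5: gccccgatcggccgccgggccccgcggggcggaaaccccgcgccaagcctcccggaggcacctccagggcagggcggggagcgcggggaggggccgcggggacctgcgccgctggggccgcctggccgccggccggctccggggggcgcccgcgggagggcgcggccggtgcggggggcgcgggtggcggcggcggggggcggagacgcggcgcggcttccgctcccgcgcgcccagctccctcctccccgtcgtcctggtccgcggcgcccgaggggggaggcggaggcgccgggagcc

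TCF7, which encodes the nuclear factor TCF-1 and is itself a Wnt target in several tissues, showed the widest gap of the TCF genes. TCF7 (Gene 6932, chromosome 5, 134108218 to 134148210) had 2461 counts in untransfected, 1442 in scrambled and 505 in SPRR1A siRNA cells. Levels descended in that order, and the SPRR1A siRNA library was 2.68-fold below the scrambled (2.42 to 2.97) and 4.08-fold below the untransfected library (3.70 to 4.50). The scrambled library was 1.52-fold below untransfected cells (1.43 to 1.63), which was not called. SKP1, which shares 2.09% of the annotated exon bases of TCF7 on the opposite strand, had 11051, 10770 and 12800 counts and so was not lower in the SPRR1A siRNA library.

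TCF7L2, the TCF family member best known from gut and liver, had 832, 615 and 526 counts, and TCF7L1, usually a repressor, had 149, 87 and 65. Both were ordered as TCF7 was but neither was called, with log2 ratios to the scrambled library of -0.13 for TCF7L2 and -0.32 for TCF7L1. The count of TCF7 per count of TCF7L2 was 2.96 in untransfected (2.73 to 3.20), 2.34 in scrambled (2.13 to 2.58) and 0.960 in SPRR1A siRNA cells (0.848 to 1.09). TCF7 made up 74.0%, 70.3% and 49.3% of the summed TPM of the 4 TCF/LEF genes in these libraries, and LEF1, the fourth, had no counts.

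The feedback genes differed in direction. AXIN2, a scaffold of the destruction complex and a widely used readout of canonical signalling, had 431 counts in untransfected, 222 in scrambled and 170 in SPRR1A siRNA cells. Both transfected libraries lay below the untransfected one, and the SPRR1A siRNA library was called lower against it, at 2.12-fold (1.77 to 2.55), but not against the scrambled library, at 1.23-fold with an interval that reached 1 (0.999 to 1.51). On the log2(TPM + 1) scale the first call was not met (-0.90). AXIN2 shares 25.2% of its annotated exon bases with another protein-coding gene of GENCODE 29 on the same strand. That gene is not among the deposited genes by name, so the value of AXIN2 is uncertain. ZNRF3, a ubiquitin ligase that removes Frizzled receptors, had 633, 484 and 618 counts and was not called, with log2 ratios of 0.44 and 0.22 against scrambled and untransfected cells.

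APCDD1, a membrane-bound Wnt inhibitor, had 49 counts in untransfected, 17 in scrambled and 45 in SPRR1A siRNA cells. Here the scrambled library was the low one, 2.57-fold below untransfected cells (1.45 to 4.76), and the SPRR1A siRNA library was 2.82-fold above the scrambled (1.58 to 5.26) and at 0.13 on the log2 scale against untransfected cells. Both calls rest on the scrambled library, where APCDD1 was under 1 CPM, and neither was met on the log2(TPM + 1) scale (-0.43 and 0.43).

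Ordered by CPM, 8 of the 27 genes (29.6%) descended from untransfected over scrambled to SPRR1A siRNA, as 19.4% of all genes did: WNT5A, WNT7B, FZD8, DKK3, TCF7, TCF7L1, TCF7L2 and AXIN2. The opposite order was found for 5 genes (18.5%, beside 19.8% of all genes), WNT16, FZD3, FZD5, FZD6 and LRP5.

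The rest of the pathway was described through 70 further genes in 8 lists, of which 55 reached 1 CPM. Against the scrambled library 1 of the 55 was called higher (1.82%) and 5 lower (9.09%), and against untransfected cells none was higher and 9 were lower (16.4%), beside the shares of all genes given above. Between the controls, none was higher and 3 lower (5.45%). Of these 55 genes, 4 (BCL9, BCL9L, VANGL1 and PPARD) were called lower than both controls, beside 4.64% of all genes. None was called higher than both, beside 1.03% of all genes.

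BCL9 and BCL9L encode the adaptors that join beta-catenin to the Pygopus proteins, and they showed the widest gaps among the 55 genes. BCL9L (Gene 283149, chromosome 11, 118896136 to 118925926) had 4784 counts in untransfected, 4780 in scrambled and 1077 in SPRR1A siRNA cells. Its controls were level, and the SPRR1A siRNA library was 4.17-fold below the scrambled (3.90 to 4.45) and 3.72-fold below the untransfected library (3.48 to 3.97). BCL9 (Gene 607, chromosome 1, 147541501 to 147626216) had 533, 509 and 118 counts and was 4.05-fold (3.31 to 4.99) and 3.78-fold (3.09 to 4.65) below them. Of the other 12 nuclear cofactors, all expressed, none was called against the scrambled library and 1 against untransfected cells, the corepressor TLE2 (-1.19, chosen after its values were seen). In the whole list of 14, 2 (14.3%, beside 7.26% of all genes) were lower than in the scrambled library. Lower than in untransfected cells were 3 (21.4%, beside 8.36%). TLE5, at 195, 153 and 162 TPM the most abundant of the list, had log2 ratios of 0.07 and -0.21. The median of the 14 was 0.00 against scrambled and -0.16 against untransfected cells.

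Beta-catenin itself (CTNNB1) had 9772 counts in untransfected, 9059 in scrambled and 10920 in SPRR1A siRNA cells, with log2 ratios of 0.36 and 0.42 against scrambled and untransfected cells. None of the 10 genes of the destruction complex list, in which it was counted, was called in any comparison, and their median was 0.23 against scrambled and 0.27 against untransfected cells. The 3 Dishevelled genes, which relay the receptor signal, were not called either, and DVL1, the most abundant, had log2 ratios of 0.08 and 0.00. The Wnt cargo receptor WLS was at 132, 109 and 108 TPM, and neither it nor the acyltransferase gene PORCN was called.

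VANGL1, a core planar polarity gene, had 3297, 2989 and 1367 counts and was 2.05-fold below the scrambled (1.92 to 2.19) and 2.02-fold below the untransfected library (1.89 to 2.15). Of the 9 expressed genes for noncanonical receptors and planar polarity, 2 (22.2%, beside 7.26% of all genes) were lower than in the scrambled and 3 (33.3%, beside 8.36%) lower than in the untransfected library, with medians of -0.38 and -0.51. The others called there, chosen after their values were seen, were ROR1 (-1.08 to the scrambled library) and ROR2 (-1.44) and CELSR2 (-1.63) to the untransfected library. ROR1 had 957, 1492 and 662 counts, so that the scrambled library was the high one, and its log2 ratio to untransfected cells was -0.27. ROR2 had 72, 40 and 21 counts. It was under 1 CPM in the SPRR1A siRNA library (0.616), so its call partly follows from the filter. CELSR2 was lower between the controls as well, in the scrambled library (-1.30), as 1 of the 9 (11.1%, beside 3.44% of all genes). RYK, a Wnt receptor and the most abundant of the list at 56.3, 38.1 and 72.9 TPM, had log2 ratios of 0.93 and 0.42 and was not called.

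PPARD, a nuclear receptor gene described as a Wnt target in colorectal cancer cells, had 3223, 2649 and 965 counts and was 2.58-fold below the scrambled (2.39 to 2.78) and 2.79-fold below the untransfected library (2.60 to 3.01). Of the 10 expressed target genes it was the 1 called against the scrambled library (10.0%, beside 7.26% of all genes called lower). Against untransfected cells SOX9 (-1.33) and TNFRSF19 (-1.56), chosen after their values were seen, were lower as well. With PPARD they were 3 of the 10, beside 8.36% of all genes. Both descended over the scrambled library, with 1710, 1052 and 569 counts for SOX9 and 1322, 675 and 375 for TNFRSF19. Their log2 ratios were -0.53 and -0.80 between the controls, and neither was called there. To the scrambled library they were -0.79 and -0.75, also not called. FOSL1, the most abundant target gene at 909, 885 and 903 TPM, had log2 ratios of 0.01 and 0.03, and MYC and CCND1 were not called. The median of the target list was -0.23 against scrambled and -0.03 against untransfected cells.

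Of the R-spondin and LGR genes, 2 of 7 were expressed. The ligand RSPO4 had 143, 73 and 191 counts and was called higher than in the scrambled library (log2 ratio 1.45, chosen after its values were seen), and the receptor LGR4 had 523, 387 and 402 counts. Of 10 further inhibitors 5 were expressed, and none was called in the SPRR1A siRNA library. Between the controls KREMEN1 (-1.01) and KREMEN2 (-1.15), co-receptors for Dickkopf proteins chosen after their values were seen, were lower in the scrambled library. They were 2 of the 5 (40.0%), beside 3.44% of all genes. KREMEN2 (1.96, 0.854 and 1.26 CPM) did not pass through the scrambled library, so its call partly follows from the filter. The call of KREMEN1 was at the threshold. TPBG, the most abundant of these inhibitors at 66.7, 57.7 and 54.8 TPM, had log2 ratios of -0.04 and -0.25.

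**Figure D4:**
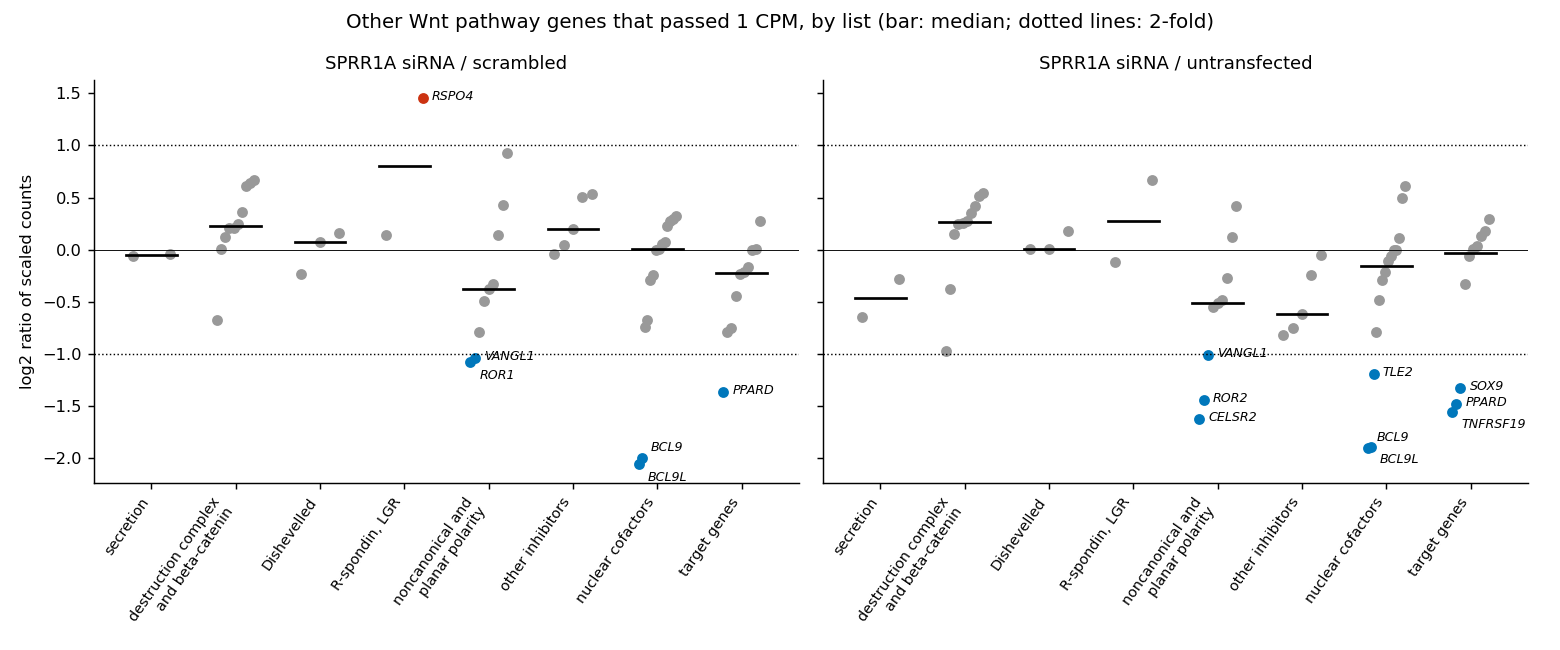
Log2 ratios of scaled counts for the 55 other Wnt pathway genes at 1 CPM or more, by list, with the list median as a bar and dotted lines at 2-fold. Named points were called (red higher, blue lower); BCL9, BCL9L, VANGL1 and PPARD are blue in both panels, and no gene of the destruction complex or Dishevelled lists is named.

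The 7-base sequence GTCACCC was searched in 3' UTRs because earlier results of these data had shown it to be frequent among genes well below the controls. The search covered the longest 3' UTR per gene in GENCODE 29 (GRCh38) and reached 12116 of the 14233 genes compared (85.1%), among them all 27 Wnt genes. GTCACCC was held by 12.3% of the genes searched, whose 3' UTRs had a median length of 3133 bases against 1204 bases for the others. Of these genes, 14.7% were called lower in the SPRR1A siRNA than in the scrambled library, against 5.93% of genes without it, and between the controls 3.43% against 3.24% were lower in the scrambled library. Since the sequence was found in these data, this is a description and not independent support.

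Of the 27 Wnt genes, 4 (14.8%) held GTCACCC, and their log2 ratios to the scrambled library ran from -0.51 to 0.44. WNT7B (-0.51) and AXIN2 (-0.29) were below 0, and FZD4 (0.32) and ZNRF3 (0.44) above 0. TCF7 and DKK1, the 2 Wnt genes called lower than in the scrambled library, did not hold it, and neither did BCL9, BCL9L or PPARD. Of the 54 other pathway genes searched, 4 (7.41%) held it, VANGL1 (-1.04) and, above 0, CELSR1 (0.145), NKD1 (0.04) and TLE1 (0.06). Whether the siRNA acts through this sequence was not tested. Sites are shown with 11 bases on each side and GTCACCC in capitals, for the Wnt genes WNT7B (chr22:45921676-45921704, minus strand) and AXIN2 (chr17:65528798-65528826, minus strand), and for VANGL1 (chr1:115698081-115698109, plus strand). All 3 belong to genes below 0, and so do not represent the holders above 0, whose sites are not shown.
WNT7B: tccctcatcctGTCACCCtcccggcctgg
AXIN2: gtacctgcacgGTCACCCgctccgtgtgt
VANGL1: atagtgtacctGTCACCCaagttattttg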

How the data were processed

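The authors deposited whole-number read counts per gene, with TPM and FPKM values for the same genes, per the file headers. HISAT2 version 2.1.0 and the builds GRCh38 and hg38 are named in the submitters' processing notes. The counting tool, annotation release and strand setting are not given in the sources used here. FPKM was read only to check its scale.

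Counts were scaled by TMM factors (edgeR 4.0.16, R 4.3.3), which were 1.0169 (untransfected), 0.9940 (scrambled) and 0.9892 (SPRR1A siRNA). Genes with 1 CPM in any library (14233 of 46427) were compared. Log2 ratios used a prior count of 2, and each ratio has a 95% interval from the exact conditional binomial distribution. Reads have no molecular identifiers, so intervals and the 3-count floor cover counting error only. The calculation was checked on simulated counts without variation between replicates, which says nothing of that variation here. Levels of different genes are compared as TPM, which is scaled by length, and counts of one gene per count of another only across libraries.

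The column of untransfected cells carries the sample title. The prefixes sc and si, which the other columns and titles share, matched the rest, since the names differ otherwise. Gene coordinates and promoters are from RefSeq (GRCh38.p14), and 3' UTRs and exon overlaps from GENCODE 29. The site sequences of FZD4 and ZNRF3 are not reported here.

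The genes and lists were chosen with earlier results of these data known. Of the 48 Wnt genes, those called in any comparison and the most abundant of each role are given with their levels and ratios. By rule, other pathway genes were named where called against both controls or most abundant in their list, and all others named, PORCN, MYC and CCND1 among them, were chosen after their values were seen.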

Additional observations from a re-analysis of the deposited data

How the results depend on the processing

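No paired analysis was possible because each group holds 1 library, and no library could be left out for the same reason. Of the 48 Wnt genes, 29 counted as expressed at 0.5 CPM, 25 at 2 CPM, 25 by deposited TPM of 1 or more and 27 with unscaled library sizes, beside 27. With DESeq2 size factors or a prior count of 0.5, all counts of called genes stayed within 1.5 times. Of 546 log2 ratios of Wnt genes recomputed under the alternatives, none of a called gene changed sign, 8 lost and 25 gained a call, and 7, all on the log2(TPM + 1) scale, left the counting interval with no change of call.

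With a 1.5-fold threshold the SPRR1A siRNA library had 6 Wnt genes higher and 3 lower than the scrambled library, and 5 other pathway genes higher and 11 lower. To untransfected cells it had 6 Wnt genes higher and 10 lower, and 2 other pathway genes higher and 15 lower, and against both controls 5 Wnt genes were higher and 2 lower. Between the controls this threshold gave 2 Wnt genes higher and 9 lower, and 1 and 11 other pathway genes. These counts are larger because the threshold is lower. Of all genes it called 11.3% higher and 15.8% lower than in the scrambled library, 8.81% and 18.1% than in untransfected cells, 4.83% and 11% against both controls, and 5.08% and 9.74% between the controls. Without the filter 4 Wnt genes were lower and 2 other pathway genes higher than in the scrambled library, 2 other pathway genes were higher than in untransfected cells, and between the controls 3 Wnt genes were higher and 4 lower, with 2 and 5 other pathway genes. A filter of 5 CPM, which leaves out WNT16 and APCDD1, left 1 Wnt gene higher than in the scrambled library and 0 higher and 0 lower between the controls. On the log2(TPM + 1) scale, which compresses low levels, 1 Wnt gene was higher and 1 lower than in the scrambled library, 1 was higher than in untransfected cells, 0 were higher than both controls, and 0 were higher and 0 lower between the controls. Other pathway genes lower on that scale were 3, 5 and 0 in the comparisons with scrambled, with untransfected and between the controls. With unscaled library sizes 2 Wnt genes were lower between the controls and 0 were higher than both controls. Among these alternatives, shares of all genes were computed for the 1.5-fold threshold only. Counts under the others therefore cannot be set beside such shares.

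At 34453554 to 40050593 counts per library, the 17 to 78 counts of WNT16, WNT10B and APCDD1 gave wide intervals, and depth cannot replace the missing replicates.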

Other observations

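Below the expression threshold, 2 Wnt genes had most of their counts in the scrambled library, and both were chosen after their values were seen. RNF43, a ubiquitin ligase that removes Frizzled receptors as ZNRF3 does, had 6 counts in untransfected, 34 in scrambled and 7 in SPRR1A siRNA cells. The scrambled library was 6.36-fold above the untransfected (2.64 to 18.5), and the SPRR1A siRNA library 4.56-fold below the scrambled (1.99 to 12.2). RNF43 shares 57.6% of its annotated exon bases with another annotated gene on the same strand in GENCODE 29. That gene is not among the deposited genes by name. RNF43 also shares 1.91% with SUPT4H1 on the same strand, which had 2355 to 2678 counts. With TSPOAP1-AS1 on the opposite strand (0, 8 and 11 counts) it shares 20.3%. These shares may cover some of the same bases, and the counts of RNF43 are uncertain. DKK2, a Dickkopf antagonist, had 18 counts in the scrambled library and 0 in the others, at least 6.73-fold higher than in the untransfected and at least 5.63-fold higher than in the SPRR1A siRNA library against a floor of 3 counts per library. WNT3A went the other way, with 28 counts in untransfected, 7 in scrambled and 25 in SPRR1A siRNA cells, as APCDD1 did above the threshold.

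For WNT2B the deposited TPM and the counts parted. TPM was 0.864 in untransfected and 1.28 in scrambled cells, a log2 ratio of 0.57, while the log2 ratio of CPM was 0.25. Of the 27 expressed Wnt genes in the 3 comparisons this was the 1 difference between the scales above 0.2.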
